A study of Mus musculus with 12 samples.

Results

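Complex I, the NADH dehydrogenase of the mitochondrial inner membrane, was followed through the messenger RNA of 35 nuclear genes that encode its subunits. The genes were chosen by symbol from a list of NADH dehydrogenase subunits encoded in the nucleus, by a rule that uses no measured value although earlier results of these data were known when it was set, and all 35 symbols were found among the 28977 gene IDs of the table. The list does not hold every nuclear subunit gene. The cells were J774A.1, a mouse macrophage-like line, labelled as macrophages, with no genetic change named in the labels. In the 12 libraries there were 4 groups of 3. The cell media group was kept in culture medium for 1 h, the HBSS group in buffered salt solution (Hanks' balanced salt solution) with 0 µM hypochlorous acid, and the other 2 groups in HBSS with 20 µM or 100 µM hypochlorous acid (HOCl). All 4 groups were then returned to full medium for 24 h and collected. HOCl is the oxidant that the neutrophil enzyme myeloperoxidase makes, and the series' title places it beside the removal of mitochondria by mitophagy. The doses are described as sublethal and lethal, without a statement in the labels of which was which or of how many cells survived. The questions that the groups allow are whether the subunit genes differed between each dose and the vehicle HBSS, between the doses, and between HBSS and cell media.

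Complex I takes electrons from NADH and passes them through a flavin and a chain of iron-sulfur clusters to ubiquinone, and it pumps protons as it does so. It is shaped like an L, with a matrix arm that carries the electron path and a membrane arm that carries the pumps. The core subunits of the membrane arm are encoded in mitochondrial DNA, those of the matrix arm in the nucleus, and around the core sit many accessory subunits, all nuclear. The 35 genes are described here by role: 6 core subunits, 9 accessory subunits of the matrix arm, 9 of the proximal membrane arm and 11 of the distal membrane arm. In macrophages complex I is a known source of mitochondrial oxidants and is known to be reorganised when the cells are activated.

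Levels are FPKM, fragment numbers scaled by exon length and library size. They compare genes per base of annotated exon, not per base of a single transcript. Each library rested on 17683937 to 21408518 reads recovered from the FPKM steps, of which the 35 members took 47493 to 75787. A single member had at least 411 reads in every library, except Ndufb2 with 42 to 143. The labels do not tell whether the replicates of a group came from different cultures, and p-values speak only of the variation among these libraries, which may be technical. Replicates 1 and 2 of the cell media group were unlike all other libraries. Their Pearson correlation with each other over all tested genes was 0.988 and with the other 10 libraries 0.946 to 0.971, while the other 10 correlated at 0.974 or above with each other. Results that rest on these 2 libraries are given with and without them. All 8 macrophage markers reached 1 FPKM, with summed levels of 3325 to 3640 FPKM in HBSS, 3450 to 3639 FPKM at 20 µM, 3837 to 4355 FPKM at 100 µM and 3446 to 3636 FPKM in cell media. No marker of T cells, B cells, fibroblasts, epithelium or endothelium reached 1 FPKM in any library, and of 4 neutrophil markers only S100a8 did.

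The start regions of some of the genes shared a short sequence. RefSeq windows of 250 bases before to 50 bases after the start site (build GRCm38.p6) were found for 32 of the 35 members. The letters AAGATGGC, a short form of the motif of the factor YY1, were searched on both strands, as GCCATCTT on the other. They stood in the windows of 7 of 32 members (21.9%), against 3.19% of all genes with a window. In these 7 members the match lay on the gene's own strand, with its first base 23 to 39 bases after the start site, and the ATG inside it is the annotated start codon. A match at 21 to 45 bases, a range chosen after these positions were seen, stood in 0.481% of all 32851 windows. Windows end 50 bases after the start site, and the shares over all genes were not limited to windows that hold the start codon. The stretches are shown because the shared letters lie at the same place in genes of all 4 roles. Each is 30 bases, read 5′ to 3′ on the strand of the gene, with the match in capitals.
Ndufs7: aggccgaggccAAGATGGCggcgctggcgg
Ndufa9: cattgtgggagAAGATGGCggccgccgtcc
Ndufs4: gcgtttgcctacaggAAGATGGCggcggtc
Ndufs6: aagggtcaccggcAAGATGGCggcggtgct
Ndufa3: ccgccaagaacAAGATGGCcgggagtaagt
Ndufc1: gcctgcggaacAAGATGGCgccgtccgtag
Ndufb8: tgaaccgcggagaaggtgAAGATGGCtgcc
On GRCm38.p6 these lie at chr10:80249462-80249491 (plus strand) for Ndufs7, chr6:126849097-126849126 (minus) for Ndufa9, chr13:114388045-114388074 (minus) for Ndufs4 and chr13:73328433-73328462 (minus) for Ndufs6. The other 3 lie at chr7:3617384-3617413 (plus) for Ndufa3, chr3:51408915-51408944 (minus) for Ndufc1 and chr19:44555393-44555422 (minus) for Ndufb8. Each spans the junction of the 5′ untranslated region and the first coding bases.

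Motifs of 4 other factors or elements were searched in the same windows. The letters GCGCATGC of nuclear respiratory factor 1, searched on both strands (GCATGCGC on the other), stood in 3 of 32 members (9.38%), against 3.05% of all genes. These 3 are shown because Ndufa8 had the largest difference at 100 µM of the proximal membrane arm. The log2 differences from HBSS were 0.32 for Ndufa8, 0.22 for Ndufa6 and 0.22 for Ndufa11, beside a median of 0.18 over the members. In Ndufa11 the matches on both strands overlap, and the capitals cover both.
Ndufa8: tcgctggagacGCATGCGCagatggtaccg
Ndufa6: tccgcggtagaGCATGCGCattgcagagcc
Ndufa11: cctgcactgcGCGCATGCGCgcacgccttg
They lie at chr2:36049328-36049357 (minus strand), chr15:82354356-82354385 (minus) and chr17:56717692-56717721 (plus). The palindrome TGACGTCA, the cyclic AMP response element, stood in Ndufa10, Ndufa11 and Ndufb2 (9.38%, against 2.03% of all genes). The letters CCGGAAGT of ETS factors (ACTTCCGG on the other strand) stood in 1 member, Ndufs3 (3.13%, against 4.31%), and GGGCGG of SP1 (CCGCCC on the other strand) in 15 (46.9%, against 38.2%). A match is a description of letters, not of a bound site. Yy1 itself was measured at 20.2, 22.3 and 22.0 FPKM in HBSS and at 20.1, 19.2 and 18.8 FPKM at 100 µM, a log2 difference of -0.14 with an SE of 0.11 (limma, adjusted p = 0.686).

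As a group, the members were alike in HBSS and at 20 µM, stood somewhat higher at 100 µM and stood highest in cell media replicates 1 and 2. The level of a library is given as the median over the 34 tested members of log2(FPKM + 1) minus the mean of the 3 HBSS libraries. It was -0.03, 0.08 and -0.05 in the HBSS libraries. At 20 µM it was -0.07, -0.01 and 0.07, and at 100 µM 0.07, 0.23 and 0.24. The 20 µM libraries lay within or just outside the HBSS range, and at 100 µM replicates 2 and 3 lay above every HBSS library while replicate 1 lay just below HBSS replicate 2. In cell media it was 0.87 and 0.93 for replicates 1 and 2 and -0.04 for replicate 3, which lay among the HBSS libraries. HBSS replicate 2 was above the mean of its own group in 33 of 34 members, and HOCl 20 µM replicate 3 was above the HBSS mean in 26.

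**Figure D1:**
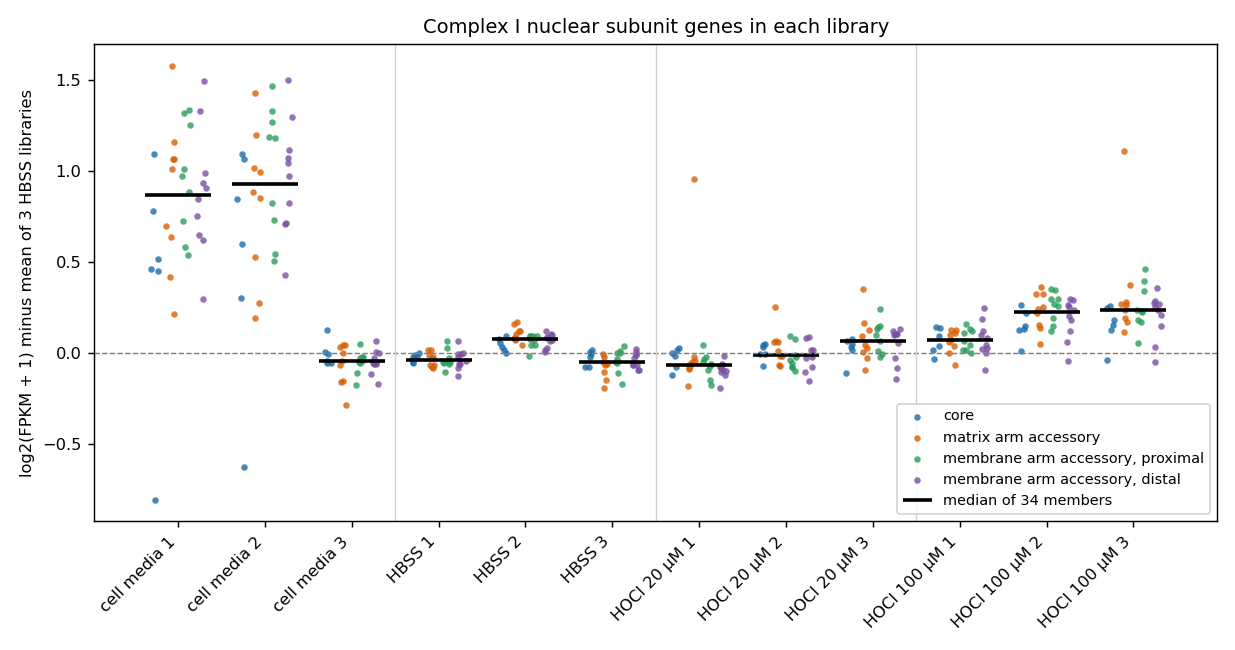
Each point is 1 of 34 tested subunit genes in 1 library, coloured by role, on the vertical axis as log2(FPKM + 1) minus the gene's mean over the 3 HBSS libraries, and the black bars are medians over the genes. Cell media replicates 1 and 2 sit near 0.9, the 100 µM libraries between 0.07 and 0.24, and the points far above the rest at HOCl 20 µM replicate 1 and HOCl 100 µM replicate 3 are Ndufa12.

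The summed level of all 35 members was 1582 ± 76.7 FPKM (SD, n = 3) in HBSS, 1592 ± 70.5 at 20 µM, 1810 ± 111 at 100 µM and 2468 ± 814 in cell media. This was 0.504%, 0.508%, 0.550% and 0.669% of the summed FPKM of all genes in the table. In this line, fewer cells that express a gene and less RNA per cell cannot be told apart. Between genes the levels spanned a wide range: Ndufc2 was the highest, with a mean of 153 FPKM over the 12 libraries, and among the tested members Ndufab1 was the lowest, with 9.71 FPKM. This order depends on the exon length used. Ndufab1 has 6883 bases of exon in all against 1416 in its shortest principal transcript, and it took 1054 to 2019 reads. Ndufa1, with 419 bases, took 438 to 750 reads and had a mean of 68.1 FPKM. Within a group the members varied little. The median coefficient of variation over members was 5.85% in HBSS, 5.27% at 20 µM and 6.51% at 100 µM, and it was 34.01% in cell media, where 2 libraries stood apart from the third.

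At 100 µM against HBSS, 33 of the 34 tested members had a higher mean, with a median log2 difference of 0.18, and all genes tested had a median of -0.01. None of the 34 was called: the members' lowest adjusted p was 0.652 (Ndufa9; limma, Benjamini-Hochberg over 12026 genes, called under 0.05). Of all genes, 0 were called (0%), and 933 genes (7.76%) but no member had an unadjusted p under 0.05. The test by limma-voom on recovered reads called 0 members too. Of 21 alternative settings 2 called members, all of them higher at 100 µM. With library weights, a fit that did not converge fully, 16 members and 3401 genes (28.3%) were called. The SE and adjusted p of single genes are from the fit of 12 libraries unless another is named. Its estimate of spread included cell media replicates 1 and 2. In the fit of the 10 libraries without them the differences were the same, the median SE of the members went from 0.21 to 0.07, and still 0 members were called, with a lowest adjusted p of 0.0580 (Ndufb6). In that fit 29 genes (0.241%) were called, and 23 of 34 members had an unadjusted p under 0.05, as did 3878 genes (32.2%). With the replicate number added to it as a block, although the labels do not say what the numbers share, 17 members and 2979 genes (24.8%) were called. The groups of 3 did not overlap, with 100 µM higher, in 16 of 34 members (47.1%), against 16.5% of all genes, and in no member was 100 µM lower without overlap, against 17.6% of all genes. The summed level of the macrophage markers was higher at 100 µM too, but single markers differed. Lyz2 (2515 to 2892 FPKM against 2020 to 2294 in HBSS), Cd14 and Csf1r were higher without overlap. Adgre1 and Fcgr1 had lower means but overlapped with HBSS. The other 3 of 8 overlapped with HBSS as well. The neutrophil markers summed to 13.97 to 16.5 FPKM at 100 µM against 9.99 to 12.8 in HBSS, nearly all of it S100a8. The part of these markers in the result was not tested. The 16 members were found in all 4 roles: 4 of 6 core subunits, 3 of 9 of the matrix arm, 4 of 9 of the proximal and 5 of 10 tested of the distal membrane arm.

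**Figure D2:**
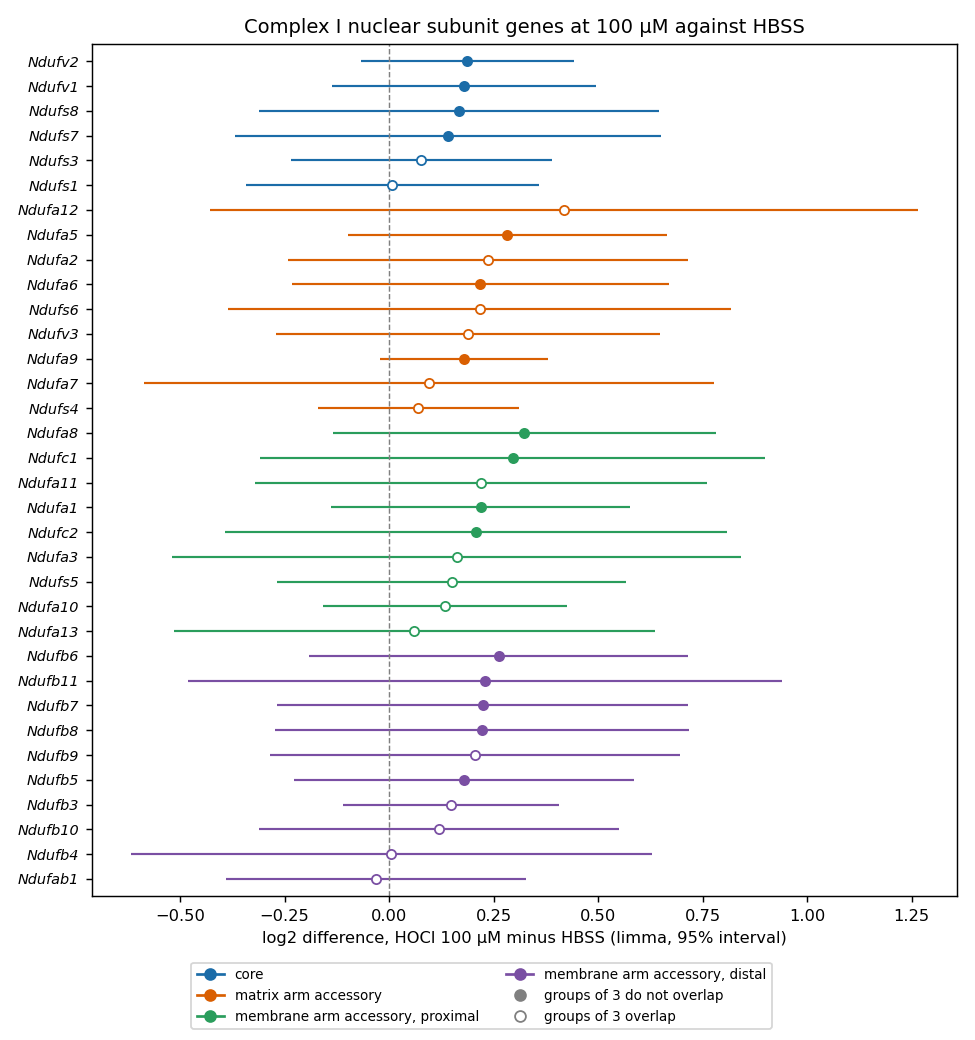
The log2 difference of HOCl 100 µM minus HBSS on the log2(FPKM + 1) scale is drawn for each of the 34 tested members with its 95% interval from limma on 12 libraries, grouped by role, with filled points where the 3 libraries of each group do not overlap. Nearly every point lies to the right of 0, from -0.03 for Ndufab1 to 0.42 for Ndufa12, and every interval includes 0.

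The 6 core subunits carry the flavin and iron-sulfur clusters, and their median log2 difference at 100 µM was 0.15. Ndufv1 binds NADH and the flavin. It was measured at 32.4, 34.5 and 30.8 FPKM in HBSS, at 32.9, 33.7 and 34.1 at 20 µM and at 36.1, 35.7 and 39.2 at 100 µM. All 3 libraries at 100 µM were above all 6 others, by a log2 difference from HBSS of 0.18 with an SE of 0.14 (limma, adjusted p = 0.688). Ndufv2, its partner with an iron-sulfur cluster, was at 71.5, 77.3 and 68.6 FPKM in HBSS, at 71.6, 72.3 and 73.3 at 20 µM and at 79.8, 87.2 and 80.8 at 100 µM. Here too the 100 µM libraries did not overlap with those of HBSS and 20 µM, with a log2 difference of 0.19 and an SE of 0.12 (adjusted p = 0.669). Ndufs8, which holds iron-sulfur clusters in the connection to the membrane, was at 65.1, 70.4 and 67.4 FPKM in HBSS, at 64.2, 67.4 and 71.4 at 20 µM and at 72.2, 78.96 and 76.95 at 100 µM. Its 100 µM libraries were again above all HBSS and 20 µM libraries, with a log2 difference of 0.17 and an SE of 0.22 (adjusted p = 0.769).

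The other 3 core subunits differed less. Ndufs7 holds the cluster that hands electrons to ubiquinone. It was at 22.5, 22.9 and 23.2 FPKM in HBSS, at 22.8, 23.7 and 23.4 at 20 µM and at 23.2, 25.4 and 27.4 at 100 µM. The HBSS and 100 µM groups were apart only narrowly, since the lowest library at 100 µM (23.18 FPKM) and the highest in HBSS (23.16 FPKM) nearly met. Ndufs3, a core subunit of the ubiquinone-reducing module, was at 26.8, 27.1 and 26.3 FPKM in HBSS, at 24.6, 25.5 and 24.7 at 20 µM and at 26.1, 29.5 and 29.3 at 100 µM. Its 20 µM libraries lay below all HBSS libraries, and 1 library at 100 µM lay below all HBSS libraries as well. Ndufs1, the largest core subunit with several iron-sulfur clusters, was at 25.6, 27.3 and 26.7 FPKM in HBSS, at 27.1, 27.3 and 27.5 at 20 µM and at 27.4, 26.8 and 25.9 at 100 µM. The 3 groups overlapped, and its log2 difference at 100 µM was 0.01 with an SE of 0.16 (limma, adjusted p = 0.988). The log2 differences at 100 µM were 0.14 for Ndufs7 (SE 0.23) and 0.08 for Ndufs3 (SE 0.14).

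The 9 accessory subunits of the matrix arm had a median log2 difference at 100 µM of 0.22, from 0.07 to 0.42, all positive. The largest, that of Ndufa12, came from 1 library. Ndufa12 sits where the modules for NADH oxidation and ubiquinone reduction meet. It was at 16.1, 17.98 and 13.8 FPKM in HBSS, at 31.8, 19.1 and 20.5 at 20 µM and at 15.9, 17.6 and 35.4 at 100 µM. The groups of HBSS and 100 µM overlapped, and 1 high library in each HOCl group stood out. Its log2 difference at 100 µM was 0.42 with an SE of 0.38 (limma, adjusted p = 0.716), and without HOCl 100 µM replicate 3 it was 0.07. Ndufa5, an accessory subunit of the ubiquinone-reducing module, was at 48.3, 54.3 and 51.0 FPKM in HBSS, at 50.5, 48.8 and 52.3 at 20 µM and at 55.0, 66.3 and 66.7 at 100 µM. The 100 µM libraries were above all HBSS and 20 µM libraries, by a log2 difference from HBSS of 0.28 with an SE of 0.17 (adjusted p = 0.669). Ndufs4, a late-joining subunit of the NADH-oxidising module whose loss causes Leigh syndrome, was at 20.1, 22.7 and 20.3 FPKM in HBSS, at 19.7, 22.0 and 20.6 at 20 µM and at 20.0, 23.5 and 22.9 at 100 µM. The groups overlapped, with a log2 difference of 0.07 and an SE of 0.11 (adjusted p = 0.803).

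Ndufa9, a matrix arm subunit beside the ubiquinone site and among the 7 genes with the YY1 letters at the start codon, had the smallest p of the members in the fit of 12 libraries, while in that of 10 libraries Ndufb6 had it. Its levels were 68.3 ± 1.89 FPKM in HBSS, 67.9 ± 1.60 at 20 µM and 77.6 ± 4.83 at 100 µM (SD, n = 3). The log2 difference at 100 µM was 0.18 with an SE of 0.09. Among the 7 genes with these letters the log2 difference at 100 µM ran from 0.07 (Ndufs4) to 0.30 (Ndufc1), inside the range of the other tested members. Ndufs7 (0.14), Ndufa3 (0.16), Ndufs6 (0.22) and Ndufb8 (0.22) lay between.

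In the proximal membrane arm all 9 accessory subunits had positive log2 differences at 100 µM, with a median of 0.21. Ndufa8 lies on the intermembrane space side of this arm. It was at 85.2, 98.1 and 91.8 FPKM in HBSS, at 90.3, 96.7 and 109 at 20 µM and at 102, 117 and 127 at 100 µM. Every library at 100 µM was above every HBSS library, and 1 of the 20 µM libraries reached into the range of 100 µM. The log2 difference at 100 µM was 0.32 with an SE of 0.21 (limma, adjusted p = 0.669). Ndufc1, a small subunit with 1 membrane helix, was at 24.8, 27.4 and 24.8 FPKM in HBSS, at 24.0, 24.98 and 28.2 at 20 µM and at 28.3, 33.0 and 34.1 at 100 µM. The 100 µM libraries were the highest of the 9, by a log2 difference from HBSS of 0.30 with an SE of 0.27 (adjusted p = 0.716). Ndufc2, the member with the highest level, was at 119, 128 and 125 FPKM in HBSS, at 118, 123 and 123 at 20 µM and at 134, 149 and 146 at 100 µM. The 100 µM group did not overlap with HBSS or 20 µM, with a log2 difference of 0.21 and an SE of 0.27 (adjusted p = 0.771). Ndufa13, also known as GRIM-19 for its part in cell death, was at 42.8, 47.4 and 42.6 FPKM in HBSS, at 43.3, 42.5 and 44.6 at 20 µM and at 44.2, 48.2 and 46.0 at 100 µM. These groups overlapped, the log2 difference was 0.06 with an SE of 0.26 (adjusted p = 0.933), and it turned to -0.02 with quantile normalization and to -0.06 once the trend with exon length was removed.

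The distal membrane arm had 10 tested accessory subunits, 9 of them with positive log2 differences at 100 µM and a median of 0.19. Ndufb6, a single-helix subunit, was at 74.5, 76.2 and 73.5 FPKM in HBSS, at 74.1, 79.3 and 80.5 at 20 µM and at 85.2, 88.2 and 96.3 at 100 µM. The 100 µM libraries were above all HBSS and 20 µM libraries, by a log2 difference from HBSS of 0.26 with an SE of 0.21 (limma, adjusted p = 0.686). Ndufb11, an X-linked subunit, was at 32.8, 37.3 and 32.7 FPKM in HBSS, at 32.3, 34.6 and 35.7 at 20 µM and at 40.8, 39.1 and 41.0 at 100 µM. Its 100 µM libraries also stood above all HBSS and 20 µM libraries, with a log2 difference of 0.23 and an SE of 0.32 (adjusted p = 0.785). In the fit of 10 libraries its SE was 0.06 (limma, adjusted p = 0.0721). Ndufb4 was at 22.0, 21.2 and 19.6 FPKM in HBSS, at 19.5, 19.4 and 22.6 at 20 µM and at 20.9, 21.8 and 20.2 at 100 µM. Here the groups overlapped throughout, with a log2 difference of 0.01 and an SE of 0.28 (adjusted p = 0.994), and the sign turned under other settings.

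Ndufab1 was the only tested member with a lower mean at 100 µM than in HBSS. It encodes the mitochondrial acyl carrier protein, which serves in fatty acid synthesis and also sits in complex I. It was at 8.41, 9.44 and 8.97 FPKM in HBSS, at 7.70, 7.96 and 8.02 at 20 µM and at 8.34, 8.63 and 9.18 at 100 µM. The 20 µM group lay below HBSS without overlap, while the 100 µM group overlapped with HBSS at a log2 difference of -0.03 with an SE of 0.16 (limma, adjusted p = 0.942). Ndufb2, a small subunit at the tip of the membrane arm, was below the filter and was not tested. It was at 0.573, 0.527 and 0.562 FPKM in HBSS, at 0.633, 0.499 and 0.445 at 20 µM, at 0.397, 0.711 and 0.720 at 100 µM and at 1.32, 1.44 and 0.621 in cell media. Its annotation holds 5628 bases of exon in all against 455 bases in its shortest principal transcript, of which 50.3% overlap with exons of other genes, Braf among them. How the reads of such shared exons were counted is not given in the sources used here, so its level is uncertain.

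Near-identical copies touched 6 members, whose processed pseudogenes (at least 90% identity over at least 200 bases) summed to 1 FPKM or more on average. The case that bears on the results is Ndufa12. Its copy Gm15920 is 99.5% identical over 402 bases, and reads of the 2 cannot be told apart with certainty. In RPM, reads scaled to the library total, Ndufa12 took 25.3, 28.2 and 21.6 in HBSS, 49.9, 30.03 and 32.2 at 20 µM and 24.9, 27.6 and 55.5 at 100 µM. In the same order Gm15920 took 34.2, 39.2 and 35.2, then 23.5, 34.3 and 37.0, then 37.8, 43.8 and 28.9. In the cell media libraries Ndufa12 took 57.7, 52.03 and 20.2 and Gm15920 76.8, 67.7 and 35.7. Among the 9 libraries of HBSS and HOCl the 2 with the most reads on Ndufa12 had the fewest on Gm15920, while in cell media replicates 1 and 2 both were high. The copy's share of the sum was 31.98% in HOCl 20 µM replicate 1 and 34.2% in HOCl 100 µM replicate 3, against 53.35% to 63.85% in the other 10 libraries. The sum of both was 61.2 ± 5.55 RPM in HBSS, 69.0 ± 4.53 at 20 µM and 72.8 ± 10.9 at 100 µM (SD, n = 3). Ndufa12 alone was at 25.03 ± 3.31, 37.4 ± 10.9 and 36.03 ± 16.9 RPM in the same order. What set the split between the 2 genes was not tested.

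**Figure D3:**
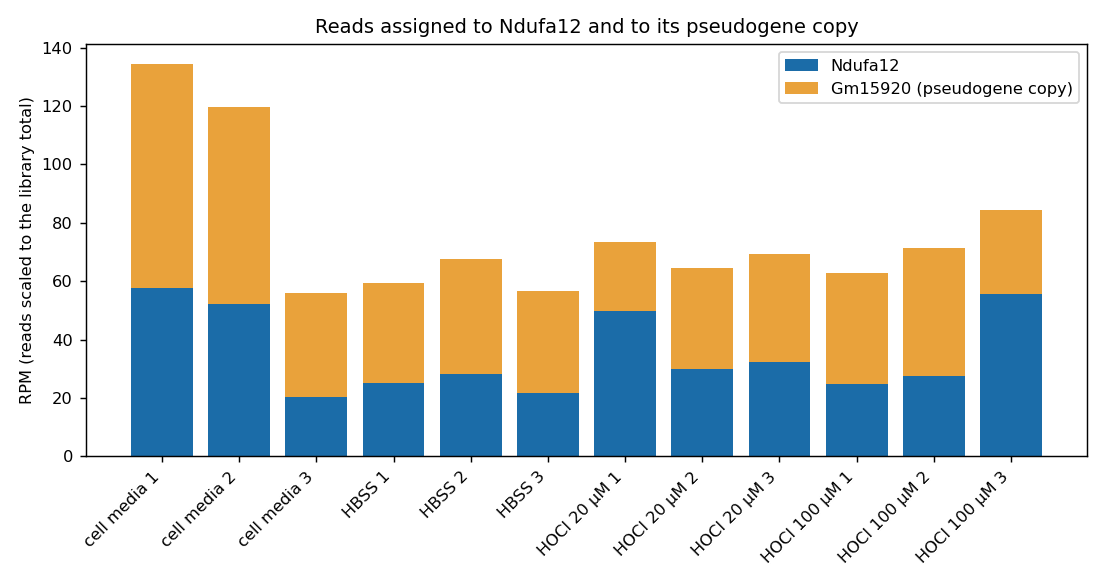
Stacked bars give the RPM assigned in each library to Ndufa12 (blue) and to its processed pseudogene Gm15920 (orange). In HOCl 20 µM replicate 1 and HOCl 100 µM replicate 3 the blue part is the larger, 49.9 and 55.5 RPM, while in the other libraries the copy holds the larger part.

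The copies of the other 5 members took a smaller part of the reads. For Ndufab1 the copies Gm4459 and Ndufab1-ps held 18.2% of the summed reads in HBSS, 20.7% at 20 µM and 21.1% at 100 µM, and the sum was 75.2 ± 4.51, 68.5 ± 2.19 and 76.1 ± 4.30 RPM (SD, n = 3). For Ndufs3, Ndufb4, Ndufs5 and Ndufs6 the copies held 6.02%, 5.04%, 2.59% and 2.60% of the sum at 100 µM. Exons of 15 members overlapped with exons of other genes, and for Ndufb6 (39.0% of its exon length, with Smim27) and Ndufa13 (29.98%, with Tssk6) the overlap was large enough that the values are less certain, since strand settings of the counting are not given in the sources used here.

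Against HBSS, 20 µM showed no common direction. Of 34 tested members 18 had a higher and 16 a lower mean, and the median log2 difference was 0.00, beside 0.01 over all genes. The members' differences ran from -0.16 (Ndufab1) to 0.52 (Ndufa12, whose split with its copy is given above). No member was called by limma (0% of all genes were called, 1.08% had an unadjusted p under 0.05, none of them a member), nor by limma-voom. The groups did not overlap with 20 µM higher in 1 member, Ndufa12, which is 2.94% of the members beside 4.21% of all genes. With 20 µM lower they did not overlap in 2, Ndufab1 and Ndufs3, beside 3.48% of all genes. By role the medians were 0.02 for the core, -0.01 for the matrix arm, -0.01 for the proximal and 0.00 for the distal membrane arm.

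Between the doses the members stood higher at 100 µM. The median log2 difference of 100 µM minus 20 µM was 0.18, beside -0.02 over all genes, and 32 of 34 tested members had the higher mean at 100 µM, with Ndufa12 (-0.11) and Ndufs1 (-0.03) below 0. The members' differences reached 0.30 (Ndufa5). No member was called by limma, with a lowest adjusted p of 0.825, and no gene of the table was (0%). An unadjusted p under 0.05 was found in 481 genes (4%) and no member, and limma-voom called none of the members. Of 21 alternative settings 2 called members, all of them higher at 100 µM: 27 members and 6084 genes (50.6%) with library weights, and 14 members and 2088 genes (17.4%) in 10 libraries with the replicate block. The groups did not overlap with 100 µM higher in 18 of 34 members (52.9%), against 12.7% of all genes, and this held for 4 core subunits, 5 of the matrix arm, 3 of the proximal and 6 of the distal membrane arm. In the fit of 10 libraries, 0 genes (0%) and 0 members were called, and 22 members had an unadjusted p under 0.05, as did 26.2% of all genes. This comparison and that with HBSS share the 100 µM libraries.

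HBSS against cell media gave the largest differences among the members, and they rested on cell media replicates 1 and 2. The median log2 difference of HBSS minus cell media was -0.61 in 12 libraries, with 33 of 34 members lower in HBSS, and over all genes it was 0.10. With cell media replicate 3 as the only library of its group the median was 0.04, and 24 of 34 members were higher in HBSS. No member was called by limma, with a lowest adjusted p of 0.0711, or by limma-voom. Over all genes 2 were called (0.0166%), and an unadjusted p under 0.05 was found in 26 members and in 4806 genes (40%). The groups did not overlap, with HBSS lower, in 2 members, Ndufv1 and Ndufb6, beside 8.91% of all genes. Without cell media replicate 3, all 34 members were called, and so were 7852 of the 12026 genes tested.

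The 2 libraries divided the members by gene. Ndufs7 was at 49.98, 50.03 and 22.99 FPKM in the 3 cell media libraries, Ndufb11 at 98.3, 98.7 and 32.99 and Ndufc2 at 244, 312 and 115. In each, replicates 1 and 2 lay above all 9 libraries of the other groups and replicate 3 lay near HBSS. Ndufs4 differed less, at 28.4, 24.2 and 21.1 FPKM. Ndufs1 went the other way, at 14.8, 16.9 and 26.5 FPKM, so that replicates 1 and 2 were the lowest of all 12 libraries for this gene alone among the tested members. The remaining core subunits Ndufv1 (44.9, 59.4 and 35.7 FPKM), Ndufv2 (100.3, 89.5 and 70.2), Ndufs3 (38.7, 41.1 and 25.7) and Ndufs8 (117, 143 and 65.1) were higher in replicates 1 and 2 than in replicate 3. Accessory subunits showed the same order, with Ndufa8 at 138, 163 and 81.2 FPKM, Ndufa13 at 112, 108 and 45.9 and Ndufb6 at 149.7, 155 and 78.5.

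Genes that serve complex I without being nuclear subunits gave other values than the members. Assembly factors build the complex and leave it. Of 19 listed, 18 were in the table and tested, 14 had a higher mean at 100 µM than in HBSS, and their median log2 difference was 0.05. None was called by limma or by limma-voom in any of the 3 comparisons of HOCl groups. At 100 µM against HBSS, 2 of the 18 were higher without overlap (11.1%, against 16.5% of all genes). Lower without overlap was 1 of the 18, against 17.6% of all genes. Ndufaf5, which modifies Ndufs7 during assembly, had the smallest p, at 14.4, 14.6 and 14.4 FPKM in HBSS, 15.2, 15.9 and 15.4 at 20 µM and 16.2, 16.6 and 17.0 at 100 µM. The 3 groups did not overlap and stood in the order of dose, and the log2 difference at 100 µM was 0.19 with an SE of 0.06 (limma, adjusted p = 0.602). Foxred1, an assembly factor with a flavin domain, was at 13.2, 12.5 and 12.004 FPKM in HBSS and at 11.8, 11.4 and 10.9 at 100 µM, apart in the other direction at -0.13 with an SE of 0.09 (adjusted p = 0.675). Ndufaf6 was at 5.90, 6.76 and 5.29 FPKM in HBSS and at 6.84, 6.16 and 7.26 at 100 µM, with overlap.

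The 7 subunits encoded in mitochondrial DNA, the proton-pumping core of the membrane arm, did not stand higher with the nuclear ones. Their median log2 difference from HBSS was -0.14 at 20 µM, with 6 of 7 lower, and -0.06 at 100 µM, with 5 of 7 lower, and none was called by limma. mt-Nd2 was at 3418, 3003 and 3323 FPKM in HBSS, at 2795, 2717 and 2813 at 20 µM and at 2638, 2875 and 3153 at 100 µM. Its 20 µM libraries lay below all HBSS libraries, while those of 100 µM overlapped with HBSS. In all, 3 of the 7 lay below HBSS without overlap at 20 µM, mt-Nd2 among them, beside 3.48% of all genes. At 100 µM 0 of the 7 were apart from HBSS in either direction. mt-Nd5 was at 972, 873 and 1089 FPKM in HBSS and at 845, 844 and 929.9 at 100 µM. mt-Nd3 went the other way at 33.0, 45.5 and 39.7 FPKM in HBSS, 41.5, 45.9 and 82.5 at 20 µM and 41.7, 45.2 and 79.3 at 100 µM, with a high replicate 3 in each HOCl group. The log2 differences at 100 µM were -0.17 for mt-Nd2, -0.16 for mt-Nd5 and 0.43 for mt-Nd3 (limma, adjusted p = 0.675 for each). The difference between the nuclear and the mitochondrial subunits was not tested.

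Lists outside complex I show how far the members' values at 100 µM were shared. The median log2 difference from HBSS was 0.18 for 39 nuclear subunits of complexes II to V, all 39 higher, 0.13 for 77 mitochondrial ribosomal protein genes, 70 of them higher, and 0.12 for 79 tested cytosolic ribosomal protein genes, 74 of them higher. The members, at 0.18 with 33 of 34 higher, lay among these. The groups did not overlap with 100 µM higher in 27 of 39 (69.2%), 30 of 77 (38.96%) and 16 of 79 (20.3%) genes of these lists, against 16.5% of all genes, so that the cytosolic ribosomal proteins lay near the share over all genes. Regulators of mitochondrial biogenesis, such as Nrf1, Gabpa and Tfam, had a median of -0.07 over 12 tested genes, 9 of them lower, and Ppargc1a was below the filter. By library the lists moved with the members: in complexes II to V the level was 0.09, 0.22 and 0.23 at 100 µM, and 0.06 in HBSS replicate 2 against -0.05 and -0.02 in the other HBSS libraries. None of the genes of these lists was called at 100 µM by limma in 12 libraries, and in the fit of 10 libraries 1 was, the ribosomal protein gene Rps12 (log2 difference 0.40, SE 0.06, adjusted p = 0.0484).

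**Figure D4:**
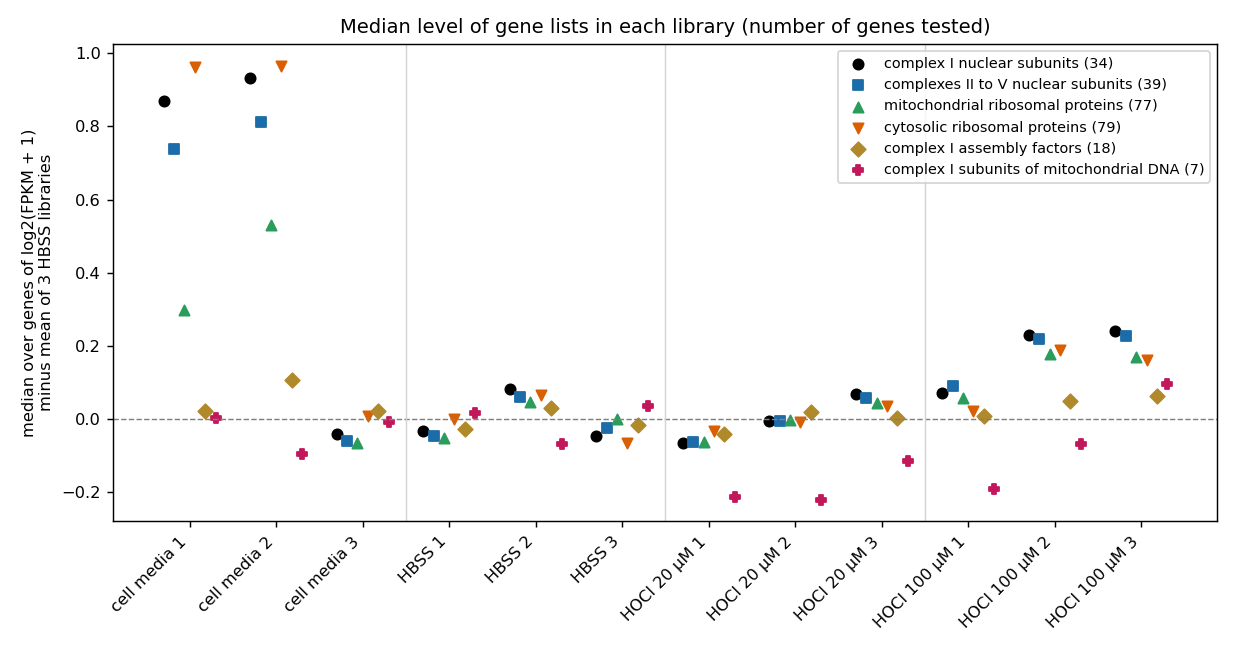
For each library the points give the median over the tested genes of a list of log2(FPKM + 1) minus the mean of the 3 HBSS libraries, with the number of tested genes in the key. The nuclear subunits of complex I, those of complexes II to V and both sets of ribosomal proteins lie close together in each HBSS and HOCl library, up to 0.24 at 100 µM, while the subunits of mitochondrial DNA lie below them at 20 µM.

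Short genes stood higher at 100 µM across the table, and the members are short. Their exon length had a median of 1569 bases (419 to 8086), against 3795 for all tested genes. Among genes of up to 1000 bases the median log2 difference at 100 µM was 0.22 for 9 members and 0.12 for all 1667 genes. From 1000 to 2000 bases it was 0.17 for 13 members and 0.12 for 1386 genes, from 2000 to 4000 it was 0.18 for 8 and 0.05 for 3172, and from 4000 to 10000 it was 0.09 for 4 and -0.06 for 4720. The members' medians were above those of all genes in the 4 classes, each of which held fewer than 20 members. Exon length here counts all annotated exons of a gene, not those of a single transcript. In the longest class Ndufs1, Ndufab1, Ndufb5 and Ndufb7 had shortest principal transcripts of 2590, 1416, 1079 and 623 bases. The classes therefore do not match members and other genes by transcript length. Spearman's rho between the log2 difference and exon length was -0.43 over the 34 members and -0.41 over 11895 genes, values across genes, which are not independent and share their libraries. Once each library's trend with exon length was removed, the members' median at 100 µM was 0.10 in place of 0.18, and with the trend on GC content removed it was 0.16. For cell media replicates 1 and 2 minus HBSS, rho with length was -0.30 over members and -0.42 over all genes, and rho with GC content was larger, 0.46 and 0.55. For 100 µM minus HBSS rho with GC content was 0.06 over members and 0.28 over all genes. The part of length and GC content in these differences was not tested beyond these values.

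**Figure D5:**
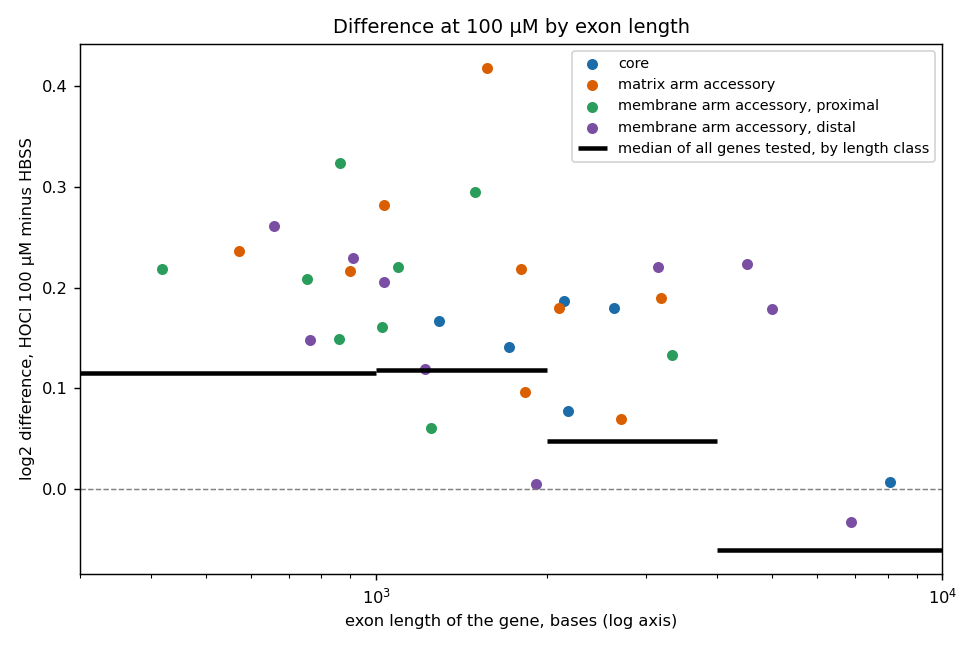
Each point is 1 of 34 tested members, with the exon length of the gene in bases on a log axis and the log2 difference of HOCl 100 µM minus HBSS on the vertical axis, coloured by role, and black bars give the median of all tested genes in 4 length classes. The bars go from 0.12 for the shortest class to -0.06 for the longest, and the medians of the members in the same classes are 0.22, 0.17, 0.18 and 0.09.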

How the data were processed

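The authors deposited FPKM values for 28977 mouse gene IDs in 12 messenger RNA libraries. Per the submitters' processing notes HISAT2, featureCounts and build GRCm39 were used; their versions and settings, strand among them, are not given in the sources used here. For sequencing 2 instruments are named, with no assignment of libraries to them, and a batch by instrument could not be looked for. Symbols (28302 IDs), exon lengths, overlaps and transcript sequences came from GENCODE M21, an older build, so no gene coordinates are given; start windows and their coordinates are RefSeq's on GRCm38.p6. All 12 columns matched a label (0 not used).

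From the FPKM values, log2(FPKM + 1) was tested for 12026 genes with at least 1 FPKM in at least 3 libraries, by limma 3.58.1 under R 4.3.3 in 1 model of the 12 libraries, with a mean for each group, a mean-variance trend and Benjamini-Hochberg adjustment, called under 0.05, two-sided. Fold differences on this scale understate those of low genes. An exact permutation test of 1 gene in groups of 3 cannot go below 0.1 and was not used. Reads were recovered from the steps of FPKM times exon length, with 98.26% of values under 1 FPKM whole within 0.01 reads, and served for depth, copies and limma-voom. Pseudogene copies were found with blastn 2.17.0. Alternatives were other pseudocounts, filters, scalings, fits, weights, length and GC corrections and left-out libraries.

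The rule for the members uses no measured value, but the members, lists, roles and tests were chosen with earlier results of these data known. Genes named with all values are the 6 core members, in each accessory group the 2 with the largest and the 1 with the smallest absolute difference of 100 µM minus HBSS, the members with the highest and lowest mean, and of assembly factors and mitochondrial subunits the 3 with the smallest p. Ndufab1 and Ndufa9 were added after their values were seen, as were S100a8, Rps12, the macrophage markers named singly, Yy1, Gabpa, Gabpb1 and Nrf1.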

Additional observations from a re-analysis of the deposited data

How the results depend on the processing

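Each comparison was recomputed under 21 alternatives. At 100 µM against HBSS 30 of 34 members had a higher mean in all of them, the others being Ndufs1, Ndufa13, Ndufb4 and Ndufab1, and the members' median of 0.18 was 0.12 with quantile normalization and 0.0958 with the exon length trend removed. Ndufs1 turned to -0.0365 with quantile normalization and -0.0112 with library weights, and ran from -0.0167 to 0.0286 with single libraries left out. Ndufa13 turned to -0.0171, -0.0562 and -0.0121 with quantile normalization, length and GC trend removed. Ndufb4 turned to -0.00966, -0.0768 and -0.0126 under these, and ran from -0.0392 to 0.0405 with single libraries left out. Genes called at 100 µM numbered 1 with no filter, 2 with 2 groups only, 3401 with library weights, 29 in 10 libraries and 0 to 1 with single libraries left out. Members called numbered 16 with library weights, whose fit did not converge fully. At 20 µM against HBSS, 6 genes were called with no filter and 158 with library weights, none of them a member. Between the doses, 11 genes were called with no filter, 1 with 2 groups only and 6084 with library weights, 27 of them members.

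Replicate numbers were not taken to pair the samples, as the labels tie them to nothing shared and the correlations of same-numbered deviations ran from -0.417 to 0.414. Without cell media they ran from -0.0623 to 0.414, positive in 7 of 9 pairs and over 0.1 in 5, so a shared source of some numbers was not settled. With the replicate block, 0 genes were called at 20 or 100 µM against HBSS and between the doses. In 10 libraries with the replicate block 2979 genes and 17 members were called at 100 µM against HBSS, and 2088 genes and 14 members between the doses. For HBSS against cell media the count of 2 genes became 193 with the replicate block, and 0 in 10 libraries with or without it. It was 1 with a pseudocount of 0.5, 5 with no filter, 1 with a mean of at least 5 FPKM, 4 with quantile normalization, 0 with 2 groups only, 5 with no mean-variance trend, 7501 with library weights, 1 with the length trend removed, 4 by limma-voom and 0 to 7852 with single libraries left out. Members called numbered 34 with library weights and 0 to 34 with single libraries left out, and the median turned to 0.0430 in 10 libraries, 0.0599 with the replicate block added, as cell media replicates 1 and 2 were left out. The cause of the other shifts was not tested. Depth was at least 411 reads for each tested member, and beside a median difference of 0.18 at 100 µM the members' median SE was 0.21 in 12 libraries and 0.07 in 10.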

Other observations

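Of 12 tested regulators of mitochondrial biogenesis, 3 were lower at 100 µM than in HBSS without overlap, beside 17.6% of all genes: Gabpa, Gabpb1 and Yy1, named after their values were seen. In a list of 12 genes this count is near that share. Gabpa, the DNA-binding part of an ETS factor, was at 13.8, 13.4 and 13.3 FPKM in HBSS, at 14.4, 13.6 and 13.04 at 20 µM, at 11.9, 11.3 and 11.5 at 100 µM and at 8.48, 7.87 and 14.4 in cell media. Its log2 difference of 100 µM minus HBSS was -0.21 with an SE of 0.16 (limma, adjusted p = 0.688). Its partner Gabpb1 was at 8.40, 7.96 and 8.01 FPKM in HBSS and at 7.88, 7.40 and 6.98 at 100 µM, a log2 difference of -0.12 with an SE of 0.12 (adjusted p = 0.728). Nrf1 was at 4.65, 4.99 and 4.78 FPKM in HBSS and at 4.55, 4.52 and 4.76 at 100 µM, with overlap. None of the 12 was called by limma at an adjusted p under 0.05.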
